A study of Drosophila melanogaster with 2 samples.

Results

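The 8 genes described here, Mef2, twi, sna, tin, bap, bin, lmd and htl, direct how mesoderm forms and how muscle is specified in the Drosophila embryo. They were chosen by name, as a fixed list of Ensembl symbols, from 13945 protein-coding genes on the 6 chromosome arms used. Whole Drosophila melanogaster embryos, 0 to 24 hours old and of both sexes pooled, had been used for chromatin immunoprecipitation with an antibody against GFP. The embryos came from 1 transgenic line (CG4854-GFP) that stably carries CG4854, a ZAD zinc finger protein, with GFP fused at its C terminus, and chromatin was fragmented by sonication. The 2 samples were biological replicates 3 and 2 of this 1 group, so there was no second condition, and no difference was tested anywhere below. Embryonic stages and tissues were mixed in each sample, so strong binding at a gene in a few cells cannot be told apart from weak binding in many. The lists hold no expression values, so no tissue marker could be checked, and untagged embryos were not analysed here.

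In the fly embryo, the Toll pathway brings the factor Dorsal into ventral nuclei, where it switches on twi and sna and so sets up the mesoderm. Twist, a basic helix-loop-helix activator, turns on many mesodermal genes, and Snail, a zinc finger repressor, keeps neighbouring fates out. Mesoderm cells then spread under the ectoderm, which needs Heartless (htl), a fibroblast growth factor receptor. The homeobox gene tin next marks the dorsal mesoderm that makes heart and gut muscle, and bap and bin act after it in the gut muscle precursors. Mef2, a MADS-box factor, drives muscle differentiation, and Lame duck (lmd), a zinc finger factor of the Gli family, acts in the fusion-competent myoblasts. These roles are background and were not measured here.

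Every peak list gave a signal, the score of the peak caller on its own scale, and the position of the summit. The pooled list and the list of each replicate held 30000 candidates, ranked here from 1 for the highest signal. A set of 3106 peaks was the thresholded output of the irreproducible discovery rate (IDR) procedure, which compares the ranks of peaks between replicates. Those 3106 peaks were the highest-ranked entries of the pooled list, so a rank in the IDR set is also a rank in the pooled list. Of them, 2936 had a candidate within 100 bp in both replicates. Membership of the set therefore does not show that a single peak repeated. Pooled signals reached 1775.6 with a median of 33.0, and the IDR set began at 95.2 and had a median of 146.0. Signals in replicate 2 ran from 12.6 to 988.3 and in replicate 3 from 12.3 to 850.2, so the lists are compared by rank rather than by raw signal. Both replicate lists rest on 1 shared control file, and the read depth is unknown.

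CG4854-eGFP peaks of the IDR set lay at 4 of the 8 regulators. Mef2, tin, bin and htl had at least 1 IDR summit in the gene or within 10 kb of either end, whereas twi, sna, bap and lmd had none. Among all protein-coding genes, 53.0% had such a summit, so the count of 4 of 8 was close to the background. An IDR summit at a promoter, less than 500 bp from a transcription start site (TSS), was found only at tin and htl, which is 2 of 8 against 15.8% of all genes. Without replicate 2, with the 3106 strongest entries of replicate 3 in place of the IDR set, the count was 1, since htl was lost. Summits in introns were counted only where they lay over 500 bp from every TSS of the gene. Mef2 alone had such IDR summits, 1 of the 7 members that have an intron against 5.86% of the 11819 genes with one. The htl promoter summit also lay in an intron but was counted at the promoter. When each IDR summit was given to the gene whose TSS was closest, 4 of 8 members received one, again Mef2, tin, bin and htl, against 17.0% of all genes.

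The longer candidate lists were read in the same way. In the pooled list, 3 of 8 members had a promoter candidate within 500 bp of a TSS (Mef2, tin and htl) against 50.3% of all genes. Replicate 2 had promoter candidates at 4 members (Mef2, tin, bin and htl) against 50.1% of genes, and replicate 3 at 4 (Mef2, twi, tin and htl) against 52.6%. Introns held pooled candidates at 3 of 7 members (Mef2, twi and htl) against 21.8% of genes with an intron. The intron counts were 4 of 7 in replicate 2, with bin added, against 23.8%, and 3 of 7 in replicate 3 against 22.3%. These counts take no account of gene length. The searched spans of Mef2 and twi were 65363 and 82952 bp, against a median of 22.2 kb over all genes. In the gene or within 10 kb, the pooled list had candidates at 6 members, all but sna and lmd, against 83.9% of genes. That count was 7 in replicate 2, all but sna, against 89.5%, and 7 in replicate 3, all but lmd, against 85.2%. As the gene with the nearest TSS of a pooled summit, 6 of 8 members were found, all but twi and lmd, against 56.2% of genes.

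**Figure D1:**
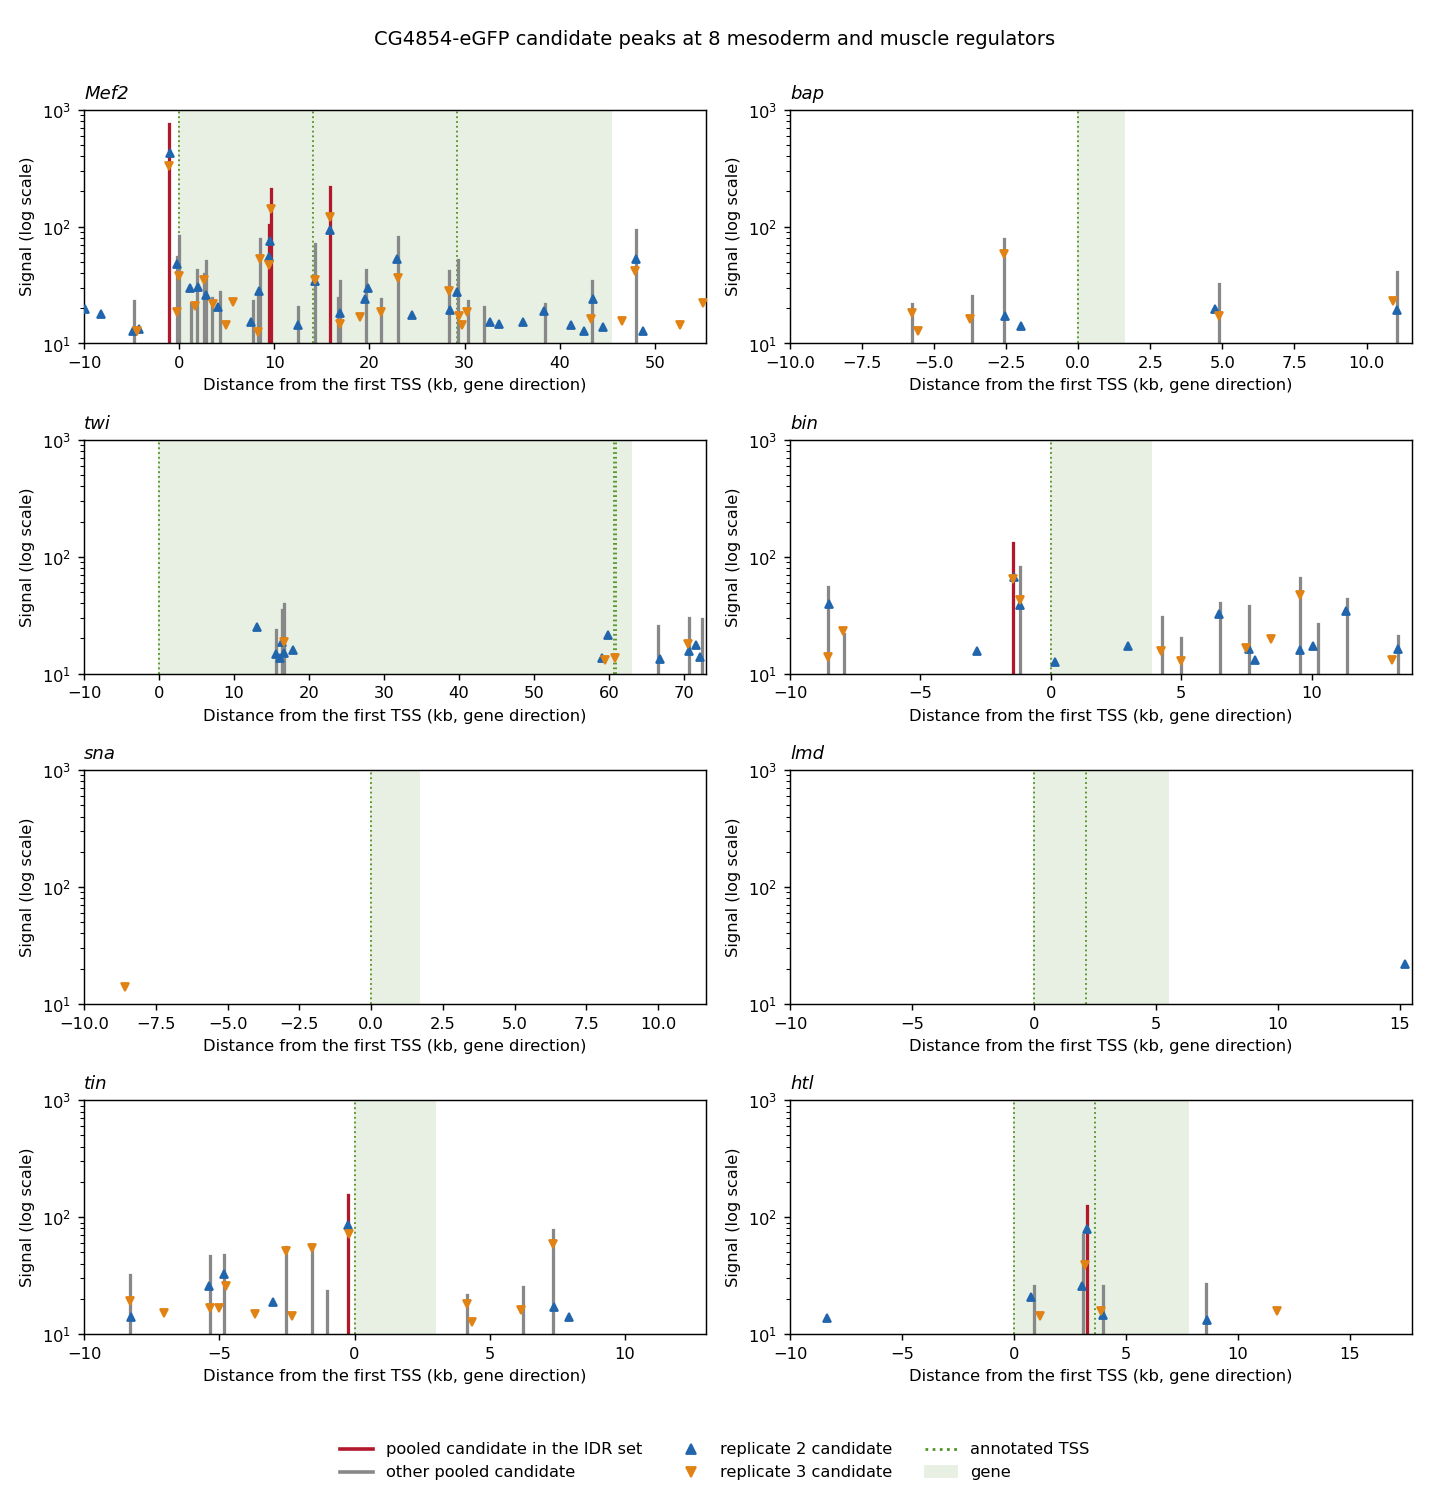
Candidate peaks at the 8 regulators. Each panel plots signal (log scale) against distance in kb from the first TSS in the direction of the gene, with the gene shaded, TSSs dotted, pooled candidates as bars (red where in the IDR set) and replicate candidates as triangles. Red bars stand at Mef2 (4), tin (1), bin (1) and htl (1), and the panels of sna and lmd each hold a single candidate, from 1 replicate. The pooled signal of a bar and the signals of the triangles come from lists with different scales.

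The gene twi (FBgn0003900), which encodes the activator that starts the mesoderm programme, had no IDR peak in or within 10 kb of it. It lies on arm 2R from 22985374 to 23048325 on the plus strand (dm6), and its 3 TSSs stand at 22985374, 23046108 and 23046322, so that a long first intron separates the first from the others. Its highest pooled candidate had a signal of 39.1 and rank 11633, with its summit at 23002062 in that intron, 16688 bp past the first TSS. Within 100 bp of it, replicate 2 had a signal of 14.9 at rank 23829 and replicate 3 a signal of 18.5 at rank 17257. All of these ranks are far below 3106, the last rank of the IDR set. The nearest TSS to this candidate was that of CG9896, 3178 bp away, and not one of twi. The highest candidate in replicate 2 had a signal of 25.1 at rank 9587 and lay inside CG9896. The pooled list had no candidate within 500 bp of any of the 3 TSSs. Replicate 3 had a 5' UTR summit 93 bp past the second TSS with a signal of 13.6 and rank 26603, and replicate 2 had no promoter candidate but one 801 bp upstream of the same TSS with a signal of 21.5 and rank 12697. The IDR summit nearest to a twi TSS stood 18025 bp away, beyond the gene at 23064347, with a signal of 127.4 and rank 1947, and it was 87 bp from the TSS of CG9890.

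The repressor gene sna (FBgn0003448; 2L, 15476593 to 15478260, minus strand) is a gene without introns and had the emptiest surroundings together with lmd. Neither the pooled list nor replicate 2 had any candidate in the 21668 bp searched around sna. Replicate 3 had 1, at 8584 bp upstream of the TSS, with a signal of 14.0 and rank 25639, and it lay nearer to the TSS of Tim17b2, a mitochondrial import gene, at 2115 bp. Of all genes, 16.1% likewise had no pooled candidate in the gene or within 10 kb. Farther out, sna was the gene with the nearest TSS for 2 weak pooled candidates, 13604 and 14517 bp downstream, with signals of 30.9 and 26.3. The nearest IDR summit was 20755 bp from the sna TSS, with a signal of 204.2 and rank 841, and its nearest TSS was that of lace, a gene of sphingolipid synthesis.

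The homeobox gene tin (FBgn0004110; 3R, 21378977 to 21381970, plus strand) carried the strongest promoter peak of the 8 genes. Its IDR peak spanned 156 bp, from 21378713 to 21378868, with the summit at 21378728, 249 bp upstream of the only TSS. The signal was 154.6 in the pooled list at rank 1394, 85.2 in replicate 2 at rank 1315 and 71.2 in replicate 3 at rank 1685. Both replicates thus placed it among their 3106 strongest entries, with summits 6 and 34 bp from the pooled one. Among the 7014 genes with a pooled promoter candidate, 84.3% had a lower best signal than tin. The 151 bp around the summit are shown because this is the strongest promoter summit among the members. They are dm6, chr3R:21378653-21378803, plus strand, with the summit at base 76, and here and below capitals mark a match to one of the searched motifs.
tin promoter summit: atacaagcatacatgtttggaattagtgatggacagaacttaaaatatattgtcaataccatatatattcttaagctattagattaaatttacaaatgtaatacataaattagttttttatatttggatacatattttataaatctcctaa
The window had a GC content of 21.2% and held none of the 13 motifs searched, so no base is in capitals.

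The other tin candidates lay mostly towards mod(mdg4), a neighbouring gene for a family of chromatin proteins. The pooled list had 10 candidates in or within 10 kb of tin, replicate 2 had 7 and replicate 3 had 14. A pooled candidate 1565 bp upstream of tin had a signal of 55.3 at rank 7004 and stood 11 bp from a TSS of mod(mdg4). Replicate 3 had the same summit with a signal of 54.1 at rank 2907, and replicate 2 had none within 100 bp. A second one, 2547 bp upstream, showed the same split, with 55.6 at rank 6940 in the pooled list, 51.4 at rank 3218 in replicate 3 and no match in replicate 2. With the 3106 strongest entries of replicate 3 in place of the IDR set, tin had 3 entries in the gene or within 10 kb in place of 1. These were the promoter entry, the one 1565 bp upstream and one 7330 bp past the TSS at rank 2475. The last of these had bap as the gene with the nearest TSS. The candidate 2547 bp upstream, at rank 3218, was not among them. Of the 10 pooled candidates, 5 were matched in both replicates, 4 in replicate 3 alone, none in replicate 2 alone and 1 in neither.

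The second NK homeobox gene, bap (FBgn0004862; 3R, 21388880 to 21390449, plus strand), lies downstream of tin in the same direction and had no IDR peak of its own. The IDR summit nearest to its TSS was the tin promoter summit, 10152 bp upstream and so just outside the 10 kb window. Its highest pooled candidate lay between both genes, 2579 bp upstream of bap and 7324 bp downstream of the tin TSS, with a signal of 78.3 at rank 4201. The replicates disagreed on it: the signal was 17.2 at rank 18836 in replicate 2 and 58.7 at rank 2475 in replicate 3. Replicate 3 alone would therefore have placed it within its 3106 strongest entries. The sequence around this summit (dm6, chr3R:21386226-21386376, plus strand) is shown as the highest candidate of a member without an IDR peak.
bap upstream candidate: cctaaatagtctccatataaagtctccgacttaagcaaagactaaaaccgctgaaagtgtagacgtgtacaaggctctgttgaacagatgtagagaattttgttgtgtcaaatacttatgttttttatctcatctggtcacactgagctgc
It held none of the 13 motifs and had a GC content of 38.4%. No list had a candidate within 500 bp of the bap TSS or in its intron.

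The forkhead gene bin (FBgn0045759; 3L, 6990622 to 6994447, plus strand), a FoxF relative of the gut muscle precursors, had 1 IDR peak upstream of its promoter window. The peak ran from 6988963 to 6989366 with its summit at 6989165, 1457 bp upstream of the TSS, and bin was the gene with the nearest TSS. The signals were 130.3 at rank 1884 in the pooled list, 66.6 at rank 1996 in replicate 2 and 65.0 at rank 2043 in replicate 3. The ranks were close in all lists, and the log2 ratio of replicate 3 to replicate 2 was -0.04. A second pooled candidate stood 265 bp nearer to the gene, 1192 bp upstream of the TSS, and its interval overlapped the IDR peak by 139 bp. It had a signal of 81.9 at rank 3910 in the pooled list, 38.7 at rank 4686 in replicate 2 and 42.5 at rank 4458 in replicate 3. The window around the IDR summit (dm6, chr3L:6989090-6989240, plus strand) had a GC content of 47.0%, the highest of the printed windows.
bin upstream summit: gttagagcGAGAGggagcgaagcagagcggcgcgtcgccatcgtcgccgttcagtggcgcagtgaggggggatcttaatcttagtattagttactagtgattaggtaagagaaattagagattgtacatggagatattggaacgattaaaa
The capitals mark GAGAG, the core of the GAGA factor site, which starts at -67 bp relative to the summit.

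At the bin promoter itself, the only candidate within 500 bp of the TSS was one of replicate 2, 138 bp into the gene, with a signal of 12.7 at rank 29722, close to the end of that list. Replicate 2 also had the only candidate in a bin intron, with a signal of 17.2 at rank 18716. Candidates were dense on the downstream side of the gene. Of the 12 pooled candidates in or within 10 kb of bin, 8 lay past the gene, all of them with Mp, a collagen gene, as the gene with the nearest TSS. The highest of these 8 had a signal of 65.9 at rank 5414, 9526 bp past the bin TSS, with 15.8 at rank 21613 in replicate 2 and 46.9 at rank 3725 in replicate 3. An IDR peak still farther out, 17960 bp past the TSS, had a signal of 110.7 at rank 2444 and stood 5518 bp from a TSS of Mp.

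The receptor gene htl (FBgn0010389; 3R, 18045216 to 18052984, minus strand) had 1 IDR peak, at its second TSS. Its transcripts start at 18052984 and at 18049366. The IDR peak, from 18049500 to 18049903, had its summit at 18049702, 336 bp upstream of the second TSS and inside an intron of the longer transcript, and it was counted as a promoter peak. The signal was 124.8 at rank 2021 in the pooled list, 79.4 at rank 1496 in replicate 2 and 38.9 at rank 5179 in replicate 3. Replicate 3 was thus the lower one at this site, with a log2 ratio to replicate 2 of -1.03, and 4.56% of the IDR peaks with both values had a lower ratio. Its summit there lay 85 bp from the pooled one. Of the 7014 genes with a pooled promoter candidate, 78.3% had a lower best signal than htl. The sequence is shown for the member whose promoter peak was outside the 3106 strongest entries of replicate 3 (dm6, chr3R:18049627-18049777, minus strand, GC content 33.1%).
htl second promoter summit: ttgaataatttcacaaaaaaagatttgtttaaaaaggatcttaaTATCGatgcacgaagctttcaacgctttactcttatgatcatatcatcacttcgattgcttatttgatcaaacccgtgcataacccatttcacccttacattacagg
The capitals TATCG are the core CGATA of the BEAF-32 site read on the other strand, and they start at -31 bp relative to the summit.

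Around this peak, htl had 4 further pooled candidates, none of them in the IDR set. One with a signal of 70.7 at rank 4887 lay 199 bp from the IDR summit, on the side away from the second TSS, and its interval overlapped the IDR peak by 205 bp. Replicate 2 had a signal of 26 at rank 9048 near it, and replicate 3 had none within 100 bp. Past the second TSS by 381 bp stood a candidate with a signal of 25.8 at rank 21659, and the long intron held another with 25.9 at rank 21492, 876 bp past the first TSS. Within 500 bp of the first TSS no list had a candidate. The last was 4975 bp past the second TSS, beyond the end of the gene, with a signal of 26.9 at rank 20396.

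The differentiation gene Mef2 (FBgn0011656) had 4 of the 7 IDR peaks found at these genes. Without replicate 2 it had 4 of 8, because tin had 3 entries in place of 1 and htl lost its 1, and without replicate 3 it had 6 of 9. It lies on arm 2R from 9913496 to 9958858 on the minus strand, is 45363 bp long and has 11 annotated transcripts that start at 9958858, 9944764 and 9929615. Having 4 or more IDR peaks in the gene or within 10 kb was found for 4.55% of genes, and the median over all genes was 1.0. Mef2 is long, however, and per 10 kb searched it had 0.61 IDR peaks, with 76.3% of genes below it. The strongest of its peaks was upstream of the gene and closer to other genes. Its summit at 9959896 was 1038 bp upstream of the first Mef2 TSS, inside the gene Pal1, and 164 bp from the TSS of Pdrg1. This peak had a signal of 753.2 at rank 43 in the pooled list, 427.8 at rank 28 in replicate 2 and 332.7 at rank 57 in replicate 3. It was the strongest at any of the 8 genes in all of the lists. By the nearest TSS it belonged to Pdrg1 in the pooled list and in replicate 2. In replicate 3 the nearest TSS to its summit was that of Pal1, at 149 bp.

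The remaining 3 IDR peaks lay inside Mef2, with Mef2 as the gene with the nearest TSS. The first, from 9942892 to 9943084 with its summit at 9942978, was in a 5' UTR exon, 1786 bp past the second TSS. It had a signal of 215.9 at rank 746 in the pooled list, 93.3 at rank 1096 in replicate 2 and 120.4 at rank 608 in replicate 3. The other 2 formed a pair in the intron upstream of the second TSS, with summits at 9949226 and 9949460, 234 bp apart, and intervals that overlapped by 60 bp. The summit at 9949226, 4462 bp upstream of the second TSS, had a signal of 209.8 at rank 791 in the pooled list, 75 at rank 1647 in replicate 2 and 140.9 at rank 423 in replicate 3. Here replicate 3 was the higher one, with a log2 ratio of 0.91, and 93.0% of IDR peaks had a lower ratio. The summit at 9949460 was weaker, with 103.1 at rank 2759 in the pooled list, 54.5 at rank 2722 in replicate 2 and 46.7 at rank 3751 in replicate 3. Mef2 thus had its peaks in a leader exon, in an intron and upstream, and none within 500 bp of a Mef2 TSS. The upstream peak was within 500 bp of the TSS of a neighbouring gene, Pdrg1, at 164 bp.

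The Mef2 promoters carried weaker candidates in all 3 long lists. The pooled list had a signal of 83.3 at rank 3805 at the first TSS, 17 bp into the gene, and a further one of 55.1 at rank 7025, 186 bp upstream. At the second TSS the pooled signal was 70.6 at rank 4903, 152 bp into the transcript, and at the third 51.7 at rank 7702, 18 bp in. All 3 start sites therefore had a candidate, and none reached the IDR set. Replicate 2 had 47.5 at rank 3375, 34.0 at rank 5726 and 27.7 at rank 8013 at these 3 TSSs. The best of replicate 3 were 37.8 at rank 5413, 34.9 at rank 6218 and 17.1 at rank 19487. The replicate 2 summit at the first TSS, 198 bp upstream, matched the pooled candidate of 55.1 and not that of 83.3. Replicate 3 had a match for each, 37.8 at 23 bp into the gene and 18.5 at rank 17216. At the third TSS replicate 2 matched the pooled candidate, and the replicate 3 summit, 144 bp in, did not. The highest pooled candidate of a TSS was thus matched in both replicates only at the second. The best Mef2 promoter signal exceeded that of 63.2% of the 7014 genes with a pooled promoter candidate, whose median was 64.4.

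Across its 65363 bp of searched DNA, Mef2 had 30 pooled candidates, of which 20 were in introns and 4 at promoters. Replicate 2 had 34 and replicate 3 had 28. Mef2 was the gene with the nearest TSS for 26 pooled summits, against 6 for htl, 3 for bap and 2 each for sna, tin and bin. Outside the IDR set, the highest intron candidates had a signal of 81.1 at rank 3978, 6275 bp upstream of the third TSS, and of 78.5 at rank 4195, 5583 bp upstream of the second. In replicate 2 these had 53.0 at rank 2850 and 27.9 at rank 7939, and in replicate 3 they had 36.6 at rank 5726 and 53.1 at rank 3021. The order of the pair thus differed between the replicates. The highest Mef2 candidate outside the IDR set, with a signal of 93.4 at rank 3181, lay beyond the far end of the gene and 90 bp from the TSS of the metabolic gene Etf-QO.

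For lmd (FBgn0039039; 3R, 23021222 to 23026713, minus strand), the factor of the fusion-competent myoblasts, almost nothing was listed. The pooled list and replicate 3 had no candidate in the 25492 bp searched. Replicate 2 had 1, beyond the end of the gene and 13051 bp from the nearest lmd TSS, with a signal of 22.1 at rank 12099, and it stood 895 bp from the TSS of CG6688. The nearest IDR summit was 22119 bp away, with a signal of 123.0 at rank 2058, and its nearest TSS was that of CG17121. The lists cannot show that lmd and sna were unbound, since each holds a fixed number of entries and signals below its last entry were not listed.

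**Figure D2:**
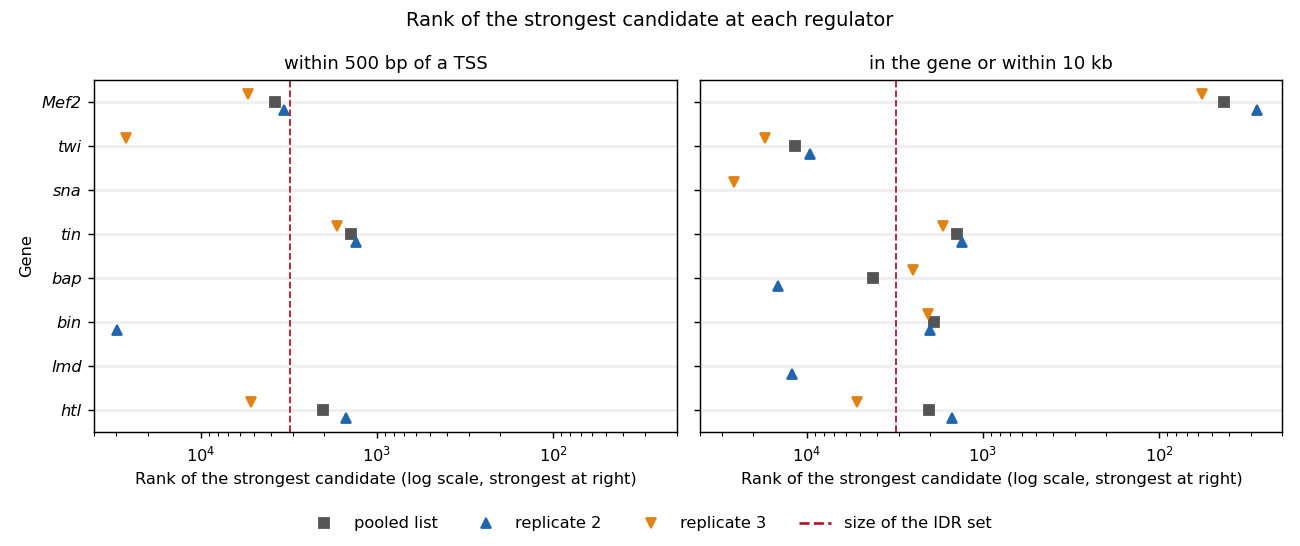
Rank of the strongest candidate of each regulator in the pooled list and in each replicate (log scale, rank 1 at the right), within 500 bp of a TSS (left) and in the gene or within 10 kb (right). A gene with no mark in a list has no candidate there, and the dashed line marks rank 3106, the size of the IDR set. In the right panel Mef2 stands apart at ranks 28 to 57, and bap has replicate 3 on the near side of the line and replicate 2 on the far side.

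The replicates were compared at the 7 member peaks, each of which had a candidate within 100 bp in both replicates. Over the whole IDR set, 2936 of 3106 peaks had this, with a median log2 ratio of replicate 3 to replicate 2 of -0.07 and 10th and 90th percentiles of -0.75 and 0.71. The strongest Mef2 peak (-0.36), the Mef2 exon peak (0.37), the weaker Mef2 intron peak (-0.22), the tin peak (-0.26) and the bin peak (-0.04) lay within those percentiles. The htl peak lay below them and the stronger Mef2 intron peak above them, as given with each gene. Of the 58 pooled candidates in or within 10 kb of the members that lay outside the IDR set, 16 (27.6%) were matched in both replicates, 16 in replicate 2 alone, 14 in replicate 3 alone and 12 in neither. Over all 26894 pooled candidates outside the IDR set, 29.0% were matched in both.

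The number of candidates per 10 kb searched set Mef2, tin and bin apart from the other members by value. In the pooled list bin had 5.04, Mef2 4.59 and tin 4.35, with 79.5%, 74.5% and 71.9% of all genes below them. The values were 2.32 for bap, 1.8 for htl and 0.72 for twi, and sna and lmd were at 0. The median over all genes was 2.77, with quartiles of 0.923 and 4.63, and the median of the 8 members was 2.06. In replicate 2 bin (5.46) and Mef2 (5.2) were again high, while tin had 3.04, with 55.0% of genes below. In replicate 3 tin was the highest of the members with 6.09 and 87.0% of genes below, against 4.28 for Mef2 and 4.2 for bin. The place of tin among the members thus moved with the replicate. Despite its span of 82952 bp, twi had 1.45 per 10 kb in replicate 2 and 0.48 in replicate 3, both below the medians of all genes, 2.78 and 2.95.

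**Figure D3:**
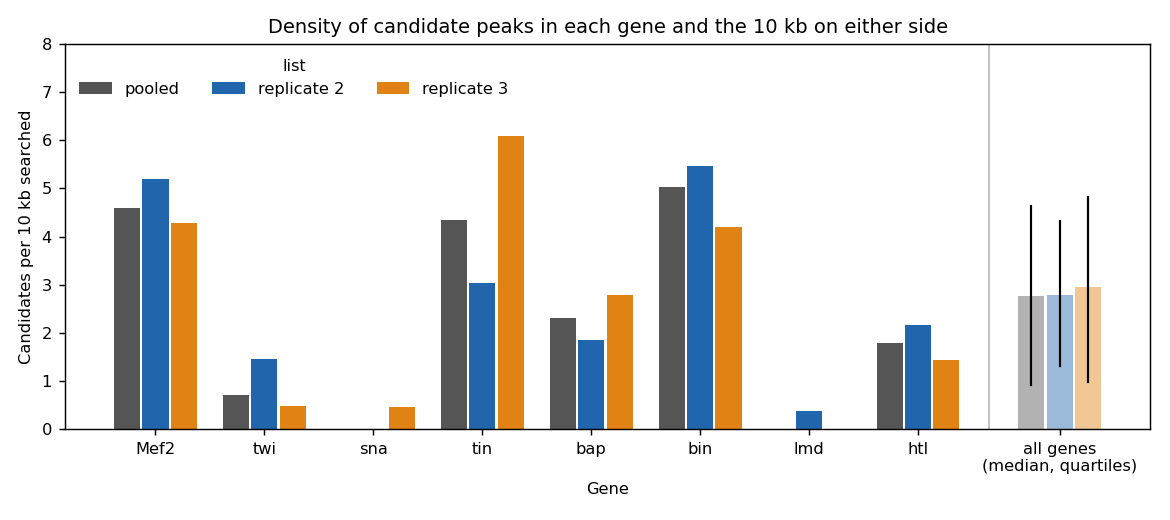
Candidates per 10 kb searched (the gene and 10 kb on either side) for each regulator in the pooled list and both replicates. Pale bars give the median over 13945 protein-coding genes and black lines the quartiles. Mef2, tin and bin stand above the median in each list, and twi, sna, bap, lmd and htl stand below it in each list.

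Distance to the nearest IDR summit ordered the genes as tin (249 bp), htl (336 bp), Mef2 (1038 bp), bin (1457 bp), bap (10152 bp), twi (18025 bp), sna (20755 bp) and lmd (22119 bp). The median over the members was 5804 bp, against 10370 bp over all genes, with quartiles of 2607 and 29575 bp. All 8 distances were below the upper quartile, and the 4 nearest were below the lower one. Within 20 kb of the gene ends, further IDR peaks appeared at Mef2, twi, tin and bin. The strongest of these had a signal of 354.0 at rank 259, 13546 bp upstream of tin, and stood 57 bp from the TSS of a transcript of the mod(mdg4) locus.

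Motifs that known regulators of these genes bind were searched within 75 bp of the 7 IDR summits, on both strands. None of the 7 windows held an E-box of the kinds searched for Twist and Snail. Over all 3106 IDR windows, the share was 5.83% for the E-box CATATG, 5.34% for the E-box CACATG, 4.54% for the E-box CAGGTG and 7.44% for the E-box CAGCTG. The Tinman sites TCAAGTG (2.61% of IDR windows) and TTAAGTG (3.54%), the Mef2 site (9.3%), the Dorsal site (1.38%) and the Zelda site CAGGTAG (0.676%) were absent too. A forkhead site, GTAAACA, lay 7 bp past the Mef2 intron summit at 9949226, against 5.99% of all IDR windows and 4.57% of the other pooled windows. GAGAG was found in 1 of 7, at bin, against 16.3% and 17.2%. The core CGATA was found in 2 of 7, at htl and at the weaker Mef2 intron summit, against 26% and 20%. The DRE TATCGATA, which contains that core, was in none of the 7, against 3.93% and 1.73%. A match describes letters only, and 7 windows are too few to set these counts apart from the shares beside them. At the highest pooled candidate of twi, which is outside the IDR set, the E-box CATATG began at -45 bp relative to the summit, and 5.38% of pooled windows outside the IDR set held it. Mean GC content was 37.3% over the 7 member windows, 36.1% over all IDR windows and 39.2% over the other pooled windows.

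The wider pathways of mesoderm and muscle were read from 7 lists of 74 further genes, with the 8 regulators left out. An IDR promoter peak was present at 12 of the 74, against 15.8% of all genes, and an IDR summit in the gene or within 10 kb at 46, against 53.0%. For 32 of the 74 genes an IDR summit had them as the nearest TSS, against 17.0% of all genes. A pooled promoter candidate was present at 57, against 50.3%, and 4 genes had no pooled candidate in or within 10 kb, against 16.1% of all genes. The 8 regulators had a pooled promoter candidate at 3 of 8, as given above, and this difference was not tested.

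The list of the Dorsal pathway, which acts upstream of twi and sna, and of other Dorsal targets had IDR promoter peaks at 2 of 13 genes. These were cact (signal 264.2), which encodes the inhibitor that holds Dorsal in the cytoplasm, and pll (150.6), the kinase that relays the Toll signal. The ligand spz, the receptor Tl and the factor dl had pooled promoter candidates of 46.3, 44.3 and 28.6, outside the IDR set. Of the early mesoderm and gastrulation genes, 2 of 11 had an IDR promoter peak, mthl1 (173.1), a receptor gene of gastrulation, and T48 (106.5), a gene of apical constriction. An IDR summit lay in the gene or within 10 kb for 10 of 11, against 53.0% of all genes. Of the 11, 7 were the gene with the nearest TSS of an IDR summit, against 17.0% of all genes. Gene length was not taken into account. In the pathway of the receptor Heartless, 2 of 10 had an IDR promoter peak, Ras85D (178.9), the small GTPase, and csw (99.9), a phosphatase of receptor signalling. The ligand genes ths and pyr had pooled promoter candidates of 46.6 and 63.4. The effectors pnt, aop and sty had 7, 5 and 5 IDR summits in the gene or within 10 kb. None was within 500 bp of a TSS of its own gene, as at Mef2. They were the gene with the nearest TSS for 4, 4 and 3 IDR summits. Whether these summits lay in introns, in exons or outside the genes was not examined.

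Downstream, the heart list had 1 of 10 with an IDR promoter peak, sli (111.4), a guidance ligand, and the visceral mesoderm list 1 of 5, org-1 (222.4), a T-box factor. The visceral receptor gene Alk and its ligand gene jeb had no IDR peak in or within 10 kb and no pooled promoter candidate. Muscle identity genes had 1 of 13, Poxm (165.5), a paired-box factor. Any IDR summit in or within 10 kb was found at 5 of 13, against 53.0% of all genes. The median was 0.0 peaks per gene, against 1.0 over all genes. Myoblast fusion genes had 3 of 12: mbc (226.4), which activates the GTPase Rac, rols (156.5), a scaffold of the founder cells, and Vrp1 (100.6), an actin regulator. In that list kirre, the adhesion receptor of founder cells, had 8 IDR summits in or within 10 kb, the most of the 74 genes. It was the gene with the nearest TSS for only 2 IDR summits, and 4.55% of all genes had 4 or more in or within 10 kb. Its partner sns had none in or within 10 kb, as had 47.0% of all genes. These counts take no account of gene length, and the difference between kirre and sns was not tested.

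**Figure D4:**
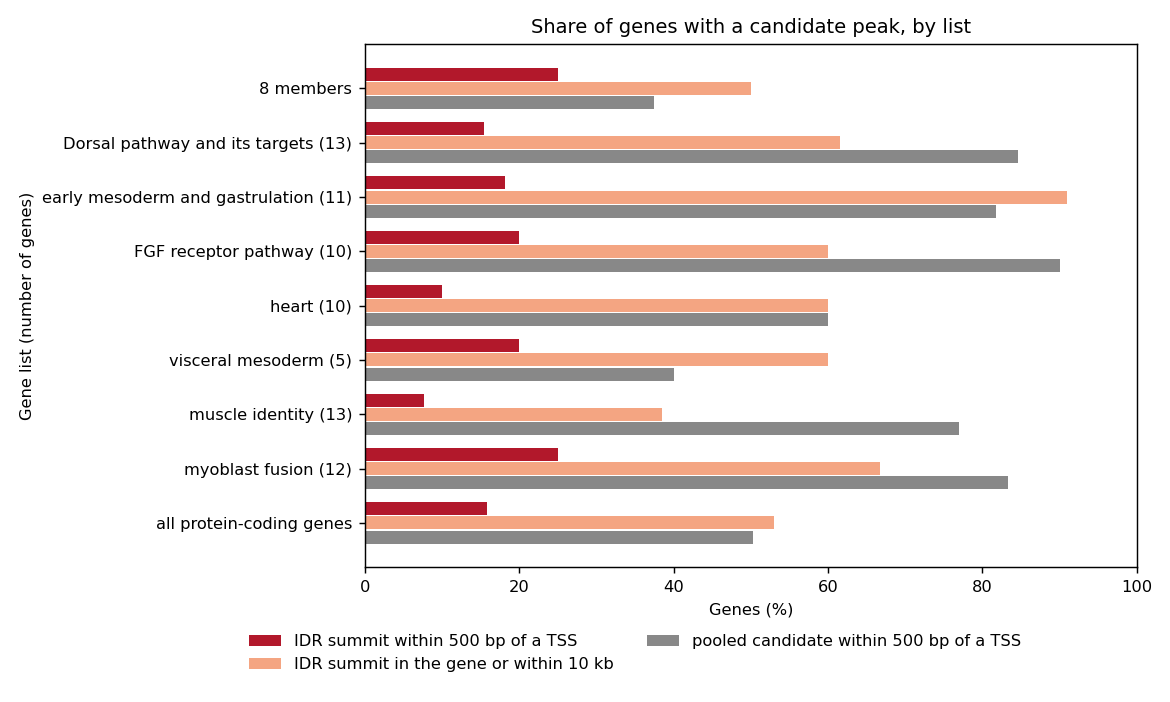
Share of genes (%) with an IDR summit 500 bp or less from a TSS (red), an IDR summit in the gene or within 10 kb (orange) and a pooled candidate within 500 bp of a TSS (grey), for the 8 regulators, 7 lists and all 13945 protein-coding genes. The number of genes stands beside each list. The early mesoderm and gastrulation list has the longest orange bar, with 10 of 11 genes against 53.0% of all genes. The 8 regulators have the shortest grey bar, with 3 of 8 against 50.3%.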

How the data were processed

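Chromatin immunoprecipitation followed by sequencing was deposited as peak lists in narrowPeak form for 2 samples of 1 group. Per the text deposited with the samples, each list of candidates served as input for the IDR procedure and was derived from a replicate's alignments with a control, or from pooled alignments. The signal value of each peak and its summit offset are the authors' values, as deposited. Aligner, peak caller, IDR threshold and read depth were not given in the sources used here, so no counting error was computed. Lists on dm3 were not used and nothing was converted between builds.

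From these, summits on dm6 were placed on protein-coding transcripts of Ensembl release 115 (BDGP6 version 54) on 6 arms, counted from 1, with Python 3.11.15, numpy 2.4.6 and pandas 2.3.3. A promoter summit lay within 500 bp of any TSS of the gene. An intron summit lay farther away, in an intron of a transcript and in no exon. Nearby meant in the gene or within 10 kb of its ends. Summits within 100 bp were matched between lists. Ranks follow the signal. Sequence came from the RefSeq dm6 genome, 75 bp on either side of a summit. The placement was tested on simulated data. The symbol mist was matched to mthl1 through RefSeq synonyms, and all 74 list genes matched.

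No test was run, since there was 1 group: counts stand beside the share of all genes. The members and lists were chosen with earlier results of these data known. Named were all members, each IDR peak near them, the highest pooled candidate of members without one, and up to 4 genes per list by promoter signal. Other list genes and other candidates were named after their values were seen. Alternatives were the TSS and gene windows, peak overlap, the definition of an intron, all annotated genes, the matching distance, the 1553 strongest peaks, and each replicate left out, with the 3106 strongest entries of the other replicate in its place. Labels call the replicates biological, and nothing says how many embryo collections they came from.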

Additional observations from a re-analysis of the deposited data

How the results depend on the processing

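The number of members with an IDR promoter peak, 2, was 1 with the 1553 strongest IDR peaks (signal of 146.0 or more) and 1 with a window of 250 bp, htl being the gene lost each time. It ranged from 1 to 2 with a replicate left out, the lower value being without replicate 2. With the 1553 strongest peaks, members with an IDR peak in the gene or within 10 kb numbered 2 instead of 4, members that were the nearest TSS of one 2 instead of 4, and IDR peaks there 4 instead of 7, at Mef2 (3) and tin (1). Within 20 kb there were 11 IDR peaks instead of 7. The other 21 of 28 alternatives, among them all those on introns, on pooled promoter candidates and on the matching of replicates, stayed within 1.5 times of the reported counts. Within that limit, members with an IDR peak numbered 6 within 20 kb instead of 4, with twi and bap added. Members with a pooled promoter candidate numbered 2 instead of 3 with a window of 250 bp. The wider intron definition still counted summits near a TSS at the promoter, so it could not add htl. Leaving out replicate 2 put bap in place of htl among the 4 members with a nearby peak, although the count stayed at 4. It also gave tin 3 peaks instead of 1, and 1 of those 3 was the bap peak. No paired analysis was possible because all samples belong to 1 group.

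With 8 genes and 7 peaks, 1 gene moves a count by much. Each list ends at a fixed number of entries, so a gene without a candidate is below that limit and not shown to be unbound. Read depth is unknown, the lists share a control file, and untagged embryos were not analysed here. Stages and tissues are mixed in each sample.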
